A study of Solanum lycopersicum with 6 samples.

Results

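The genes described here are those whose description in the deposited expression table of tomato fruit names a cytosine or DNA methyltransferase, chromomethylase, DNA demethylase, DEMETER, argonaute, dicer, RNA-dependent RNA polymerase or RNA-directed DNA methylation protein. That rule found 106 of 40229 gene models. It sets aside the demethylase gene DML2 (Solyc10g083630), which is not described here. The members comprised 11 methyltransferases, 3 demethylases, 1 RNA-directed DNA methylation protein, 50 dicer entries, 18 argonautes and 23 RNA-dependent RNA polymerases.

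Transcripts were measured by RNA-seq in 3 libraries of the SlLBD40 knockout (genotype SlLBD40-KO) and 3 wild-type (WT) libraries, all of fruit of the dwarf tomato Micro-Tom at 25 days after anthesis. LBD genes code for plant transcription factors of the LATERAL ORGAN BOUNDARIES family. The labels do not say which change the knockout carries, whether it is 1 line, or if each replicate came from its own plant or from a pool. The p-values below therefore measure spread between libraries that may be partly technical. The prefix of the sample titles and, where given, the sequencing lane differ between the genotypes, and neither can be told apart from genotype in any comparison below. Libraries are named by genotype and by the number of their column, for example knockout 1.

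In plants, cytosines are methylated by maintenance enzymes that copy marks after DNA replication, by chromomethylases that act where histone H3 is methylated, and by domains-rearranged methyltransferases (DRM) that are guided by small RNAs. In that guided pathway an RNA-dependent RNA polymerase makes double-stranded RNA, a dicer nuclease cuts it, and an argonaute protein carries the small RNA to its target. Demethylases of the DEMETER family remove the mark, and loss of methylation at many promoters accompanies ripening in tomato fruit. These steps of the small RNA pathways are best known from Arabidopsis.

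The libraries were fruit-like by the markers examined. FRUITFULL-like MADS-box 2 (Solyc03g114830) lay between 229 and 257 TPM in the knockout and between 255 and 296 TPM in wild type, and Tomato AGAMOUS-like 1 (Solyc07g055920) between 164 and 175 TPM in the knockout and between 172 and 241 TPM in wild type. TPM is a transcript level scaled to the library total and to transcript length. The ripening regulator RIN (Solyc05g012020) lay between 20.9 and 113 TPM in the knockout and between 1.53 and 19.7 TPM in wild type (limma adjusted p = 0.228). Knockout 1 and wild type 1 held more RNA of seed storage and oil body genes than the others. The list of 106 such genes summed to 5166, 604 and 2228 TPM in the knockout and to 14255, 1427 and 1822 TPM in wild type, and 30 of them were tested. With entries described as lipid-transfer proteins left out, a trim made after the values were seen, 42 genes summed to 4699, 168 and 431 TPM in the knockout and to 4657, 75.0 and 62.6 TPM in wild type. Knockout 3 had the fewest genes at 1 TPM or more, 17352, against 18016 to 18693 in the other libraries. The labels give no identifier for SlLBD40, and 2 candidates were read. Solyc02g085910, a LOB domain gene chosen from prior knowledge, had 0.77, 2.51 and 3.85 TPM in the knockout against 1.57, 5.35 and 1.90 TPM in wild type. Solyc05g009320, described as LOB domain-containing protein 40, had 1.23, 1.51 and 0.61 TPM in the knockout against 3.41, 0.79 and 1.53 TPM in wild type. The genotypes overlapped for both, so neither checks the labels.

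Most members were listed at 0 or at low levels. Of the 106, 34 reached 1 TPM in at least 3 libraries and were tested, 17 were read below that level, and 55 were listed at 0 in every library. Without read counts, a 0 can also be a failed estimate, for example among near-identical copies. The split followed how each description was made. Of 34 members named in the table without a similarity score, 24 were tested. All 8 members whose description came from a database hit that met the annotation's mark for alignment overlap were tested. Of 46 whose hit did not meet that mark, 2 were tested and 43 were listed at 0 in every library. The 18 polymerase entries whose hit is a virus protein, by its species code, included 11 at 0 in every library and 0 that were tested. The highest value of any of these 18 was 0.67 TPM.

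Dicer entries accounted for 40 of the 55 members listed at 0. Their identifiers place 36 of the 50 on chromosome 1, nearly all described as Dicer-like protein 2, and all 36 were listed at 0 in every library. The tested dicers came from chromosomes 6, 7, 8, 10 and 11. Among the members named without a similarity score, Argonaute4c (Solyc06g073530) was listed at 0 in every library, and Argonaute3, Argonaute15, Argonaute10b, Argonaute4d and Dicer-like 2c did not exceed 0.26 TPM in any. Argonaute7, which in Arabidopsis loads a microRNA that triggers trans-acting small RNAs, stood at 0.62, 0.53 and 0.13 TPM in the knockout and at 0.06, 0.31 and 0.24 TPM in wild type. A methyltransferase described as cytosine-5 DNA methyltransferase1L (Solyc01g006100) had 0.17, 0.36 and 0.25 TPM in the knockout against 1.82, 1.01 and 0.23 TPM in wild type. It reached 1 TPM in 2 libraries and so was not tested.

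**Figure D1:**
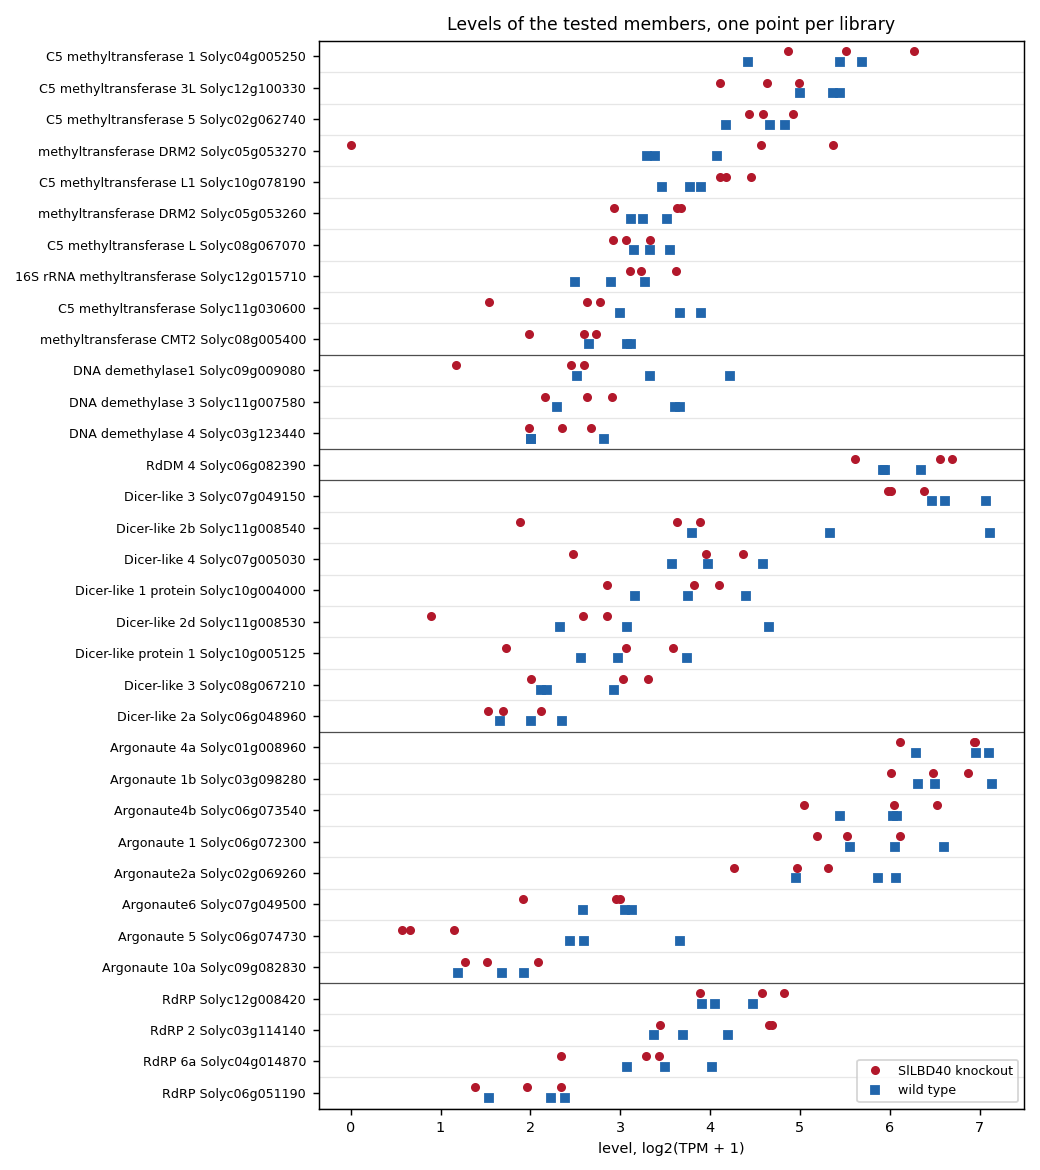
Levels of the 34 tested members on the log2(TPM + 1) scale, with 1 point per library, circles for the SlLBD40 knockout above squares for wild type, and lines between the role groups. The genotypes overlap for all members except 5, and Argonaute 5 has the clearest gap.

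Knockout fruit was compared with wild-type fruit for all genes with limma on log2(TPM + 1), with Benjamini-Hochberg adjustment over 18368 genes and a call at an adjusted p under 0.05. Of the 34 tested members, 0 were called, where 0.0926% of all genes tested were called in either direction and 0.049% were called lower. At an unadjusted p under 0.05, 0 members were higher and 4 were lower in the knockout, namely Argonaute 5, the methyltransferase Solyc11g030600, Dicer-like 2b and the Dicer-like 3 entry Solyc07g049150. Over all genes tested 6.24% were higher and 11.3% lower at that level, so the share of members is near the background. The genotypes did not overlap for 1 member that was higher and 4 that were lower, against 8.26% and 16.1% of all genes tested. The mean was lower in the knockout for 22 members, against 56.5% of all genes tested, and the median log2 fold change of the members was −0.23, beside −0.09 for all genes.

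These sums moved with single libraries. Without knockout 3 the median turned to 0.09 for the members, with 20 of 34 members higher, and to 0.026 for all genes. At an unadjusted p under 0.05 there were then 2 higher members and 1 lower, where 9.51% of all genes were higher and 9.95% lower. Those 2 were RNA-dependent RNA polymerase2 and the DRM2 entry Solyc05g053270, and the 1 was Argonaute 5. Members with non-overlapping genotypes then numbered 7 higher and 4 lower, where 40.3% of all genes did not overlap. Leaving out wild type 3 gave a median of −0.02 for the members, and leaving out knockout 1 or wild type 2 gave −0.42. The median of all genes was −0.0018 without wild type 3, −0.17 without knockout 1 and −0.12 without wild type 2. The count of lower members at an unadjusted p under 0.05 was 8 without wild type 2. It was 1 when wild type 1, wild type 3 or both seed-rich libraries (knockout 1 and wild type 1) were left out. Non-overlapping lower members numbered 8 without knockout 1, 13 without wild type 2 and 9 with both seed-rich libraries left out, and non-overlapping higher members numbered 2 without wild type 3. Over all genes, the share without overlap in either direction also moved, to 29.4% when knockout 1 was left out, 37.2% for wild type 2, 31.0% for wild type 3 and 39.9% for both seed-rich libraries. The share of all genes at an unadjusted p under 0.05 was 11.2% when knockout 1 was left out, 13.7% for wild type 1, 17.4% for wild type 2, 12.7% for wild type 3 and 8.85% for both seed-rich libraries. Limma called 0 members in each of these fits, but it called 0 genes of any kind when knockout 1, wild type 3 or both seed-rich libraries were left out, and 3 genes when wild type 2 was.

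**Figure D2:**
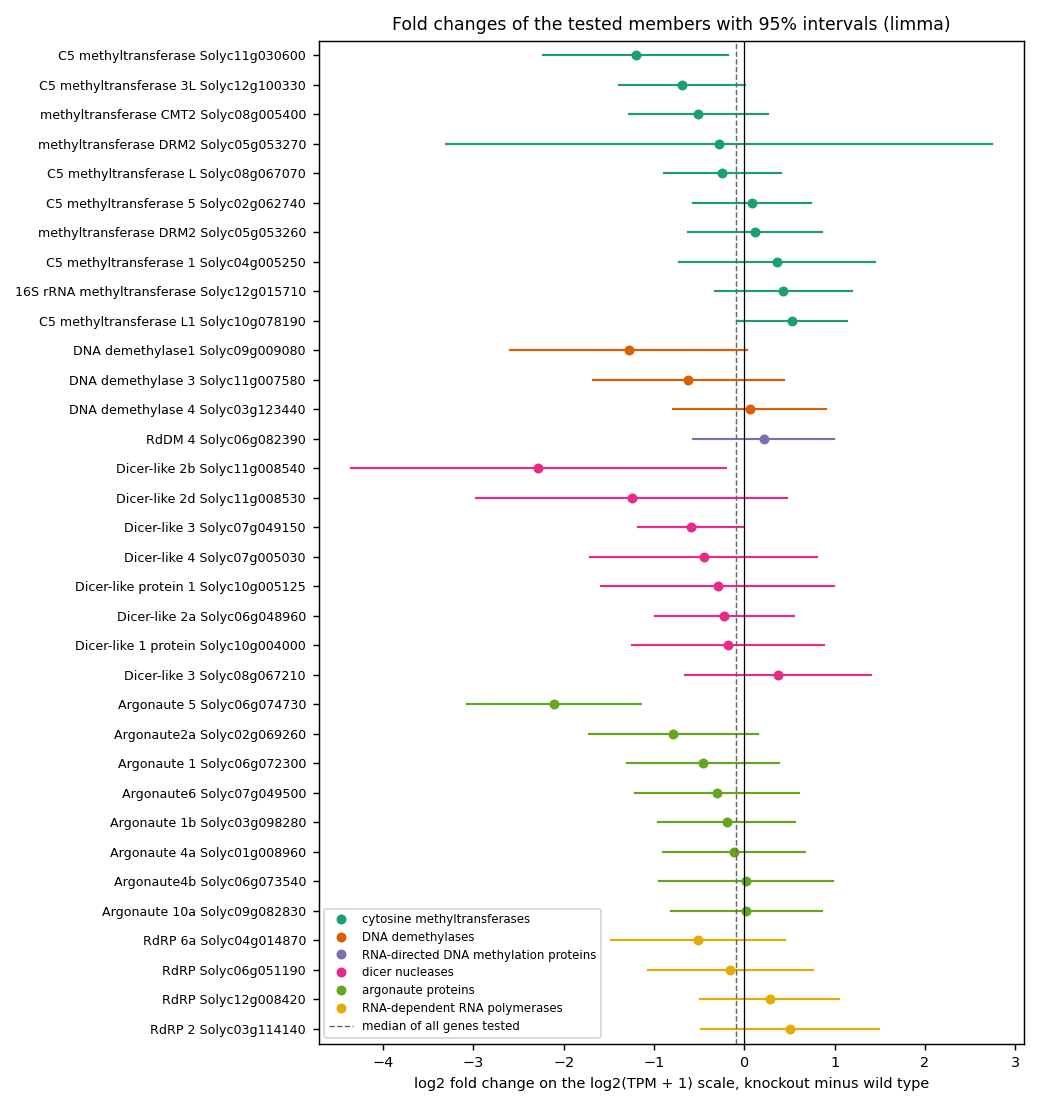
Log2 fold change (knockout minus wild type, log2(TPM + 1) scale) of each tested member with its 95% interval from limma, n = 3 libraries per genotype, coloured by role and ordered within each role. The dashed line is the median of all genes tested, and 4 intervals lie wholly below 0.

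What the members shared was a low level in knockout 3. Every tested member, 34 of 34, stood lower in knockout 3 than the mean of knockout 1 and 2 on the log2 scale, with a median difference of −0.81. Over all genes tested, 69.3% stood lower in knockout 3 and the median difference was −0.35. Knockout 3 was the lowest of the 6 libraries for 26 members, against 40.3% of all genes. Wild type 3 was the highest library for 18 members, against 29% of all genes. The summed level of all members was 1014, 844 and 501 TPM in knockout 1 to 3 and 1025, 713 and 1076 TPM in wild type 1 to 3. Libraries of each genotype lay further apart than the genotype means did. In bulk fruit, fewer cells of a type and less RNA per cell cannot be told apart. Knockout 3 also had the fewest genes at 1 TPM and the highest RIN value, 113 TPM, and the part of either in the members' low values was not tested.

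**Figure D3:**
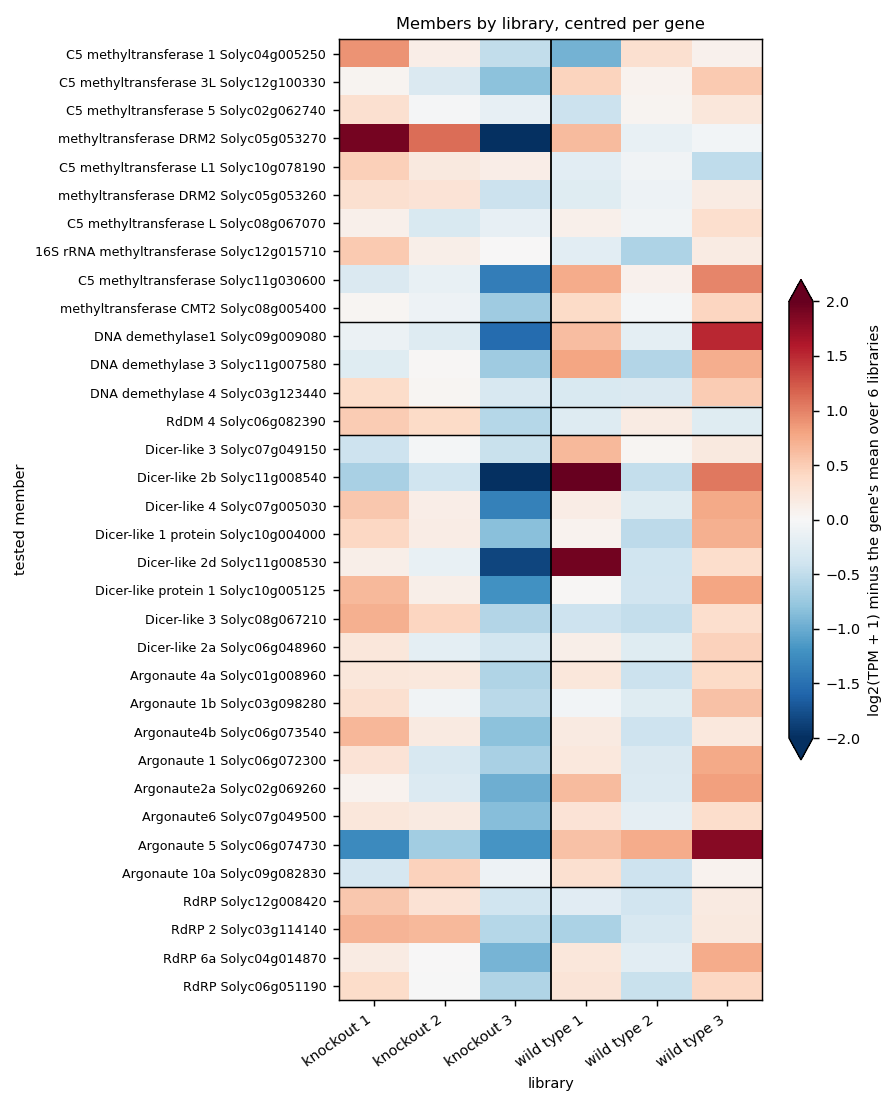
Tested members by library, as log2(TPM + 1) minus the gene's mean over the 6 libraries, knockout libraries on the left of the line and wild type on the right, with colours beyond −2 and 2 drawn at the end of the scale. The column of knockout 3 is low for most members, and Dicer-like 2b and 2d stand out in wild type 1.

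Among 10 tested methyltransferases, 1 was higher and 2 were lower in the knockout without overlap, against 8.26% and 16.1% of all genes tested. None of the 3 passed the adjusted threshold. The highest levels were those of cytosine-5 DNA methyltransferase1 (Solyc04g005250) and cytosine-5 DNA methyltransferase3L (Solyc12g100330), which stood among the first 3 in every library. Solyc04g005250 stood at 76.1, 44.5 and 28.3 TPM in the knockout and at 20.5, 50.6 and 42.7 TPM in wild type. Its log2 fold change of 0.36 (SE 0.46, limma adjusted p = 0.747) did not exceed the spread of the libraries, which overlapped widely. It was −0.02 without wild type 1 and −0.38 with both seed-rich libraries left out.

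Solyc12g100330 stood at 30.7, 23.8 and 16.3 TPM in the knockout and at 40.3, 30.98 and 42.5 TPM in wild type. The genotypes did not overlap, though knockout 1 lay close to wild type 2 (log2 fold change −0.69, SE 0.30, limma adjusted p = 0.289). The opposite order held for cytosine-5 DNA methyltransferaseL1 (Solyc10g078190), at 21.0, 17.1 and 16.2 TPM in the knockout and 12.7, 13.9 and 10.1 TPM in wild type. This was the 1 member with non-overlapping genotypes and a higher level in the knockout (log2 fold change 0.53, SE 0.26, limma adjusted p = 0.343). Within a library, the ratio of Solyc12g100330 to Solyc10g078190 was 1.46, 1.40 and 1.002 in the knockout and 3.18, 2.22 and 4.23 in wild type. That pair was chosen after its values were seen. Its ratio had to separate the genotypes, because both of its genes did so in opposite directions.

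The gene described only as cytosine-5 DNA methyltransferase (Solyc11g030600) stood at 5.20, 5.85 and 1.90 TPM in the knockout and at 11.6, 7.0 and 13.9 TPM in wild type. Its genotypes did not overlap, and its log2 fold change was −1.21 (SE 0.44, limma adjusted p = 0.220; −1.47 to −0.82 with each library left out). Genes of DNA replication, active in dividing cells, are given beside it. Of 9 tested, 6 were lower and 1 higher at an unadjusted p under 0.05, against 11.3% and 6.24% of all genes tested, with 0 called by limma. Their summed level was 66.6, 64.1 and 79.2 TPM in the knockout and 190, 112 and 108 TPM in wild type. The mean was higher in the knockout for 2 of them. The 1 at that p was minichromosome maintenance 9 (Solyc01g105530), at 15.15, 9.44 and 18.2 TPM in the knockout and 5.27, 8.84 and 8.59 TPM in wild type. PCNA (Solyc06g076660), the sliding clamp of replication, stood at 1.47, 4.17 and 4.83 TPM in the knockout and at 45.8, 19.0 and 18.4 TPM in wild type (limma adjusted p = 0.0879). The part of dividing cells in the level of Solyc11g030600 was not tested.

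The chromomethylase entry CMT2 (Solyc08g005400) averaged 4.55 ± 1.40 TPM in the knockout and 6.797 ± 1.33 TPM in wild type (SD, n = 3 each; limma adjusted p = 0.474). The DRM2 entries Solyc05g053260 and Solyc05g053270 are neighbours by identifier, and reads of near-identical copies could be split between them by the authors' counting. Solyc05g053260 stood at 11.8, 11.4 and 6.63 TPM in the knockout and at 7.67, 8.53 and 10.5 TPM in wild type. Solyc05g053270, whose hit did not meet the overlap mark, stood at 40.4 and 22.8 TPM in knockout 1 and 2, was listed at 0 in knockout 3, and had 15.9, 8.86 and 9.50 TPM in the wild-type libraries. Such a 0 can be a failed estimate, and the log2 fold change of −0.28 had an SE of 1.29. It was 1.38 without knockout 3 (limma adjusted p = 0.154). The entry Solyc12g015710, at 9.10 ± 1.95 TPM in the knockout and 6.58 ± 2.02 TPM in wild type (SD, n = 3 each; limma adjusted p = 0.544), matched the rule by its letters but is described as a ribosomal RNA methyltransferase.

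The 3 demethylases, DNA glycosylases that excise methylated cytosine, were expressed at single-digit levels in the knockout. DNA demethylase1 (Solyc09g009080) stood at 5.03, 4.47 and 1.26 TPM in the knockout and at 9.04, 4.72 and 17.6 TPM in wild type. The genotypes overlapped between knockout 1 and wild type 2, and the log2 fold change of −1.28 (SE 0.56, limma adjusted p = 0.298) ranged from −1.70 to −0.83 with each library left out. DNA demethylase 3 (Solyc11g007580) stood at 5.21, 6.52 and 3.48 TPM in the knockout and at 11.7, 3.91 and 11.2 TPM in wild type, with wild type 2 among the knockout values (limma adjusted p = 0.530). DNA demethylase 4 (Solyc03g123440) averaged 4.14 ± 1.22 TPM in the knockout and 4.03 ± 1.74 TPM in wild type (SD, n = 3 each), and its log2 fold change of 0.06 changed sign without knockout 1, wild type 1 or wild type 2.

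RNA-directed DNA methylation 4 (Solyc06g082390), which in Arabidopsis associates with RNA polymerases, was among the more abundant members, at 103, 93.3 and 48.0 TPM in the knockout and 59.9, 80.7 and 60.7 TPM in wild type. Knockout 3 was the lowest of all and the other knockout libraries were the highest, so that the log2 fold change of 0.21 (SE 0.33, limma adjusted p = 0.799) became 0.55 without knockout 3.

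Among RNA-dependent RNA polymerases, which copy single-stranded RNA into a double strand, 4 were tested. RNA-dependent RNA polymerase2 (Solyc03g114140), the partner of RNA polymerase IV in Arabidopsis, stood at 24.7, 24.1 and 9.85 TPM in the knockout and at 9.36, 11.9 and 17.4 TPM in wild type. Knockout 1 and 2 lay above all wild-type libraries and knockout 3 among them (log2 fold change 0.50, SE 0.42, limma adjusted p = 0.592; 0.91 and adjusted p = 0.207 without knockout 3). RNA-dependent RNA polymerase6a (Solyc04g014870), whose counterpart in Arabidopsis serves trans-acting small RNAs and virus defence, stood at 9.83, 8.75 and 4.06 TPM in the knockout and at 10.3, 7.41 and 15.2 TPM in wild type (log2 fold change −0.51, SE 0.41, limma adjusted p = 0.575). The copy 6b (Solyc08g075820) stayed below 1 TPM in every library. The entries Solyc12g008420 and Solyc06g051190, with no further name, averaged 21.3 ± 6.87 and 2.86 ± 1.24 TPM in the knockout and 16.97 ± 3.76 and 3.28 ± 1.23 TPM in wild type (SD, n = 3 each; limma adjusted p = 0.720 and 0.882).

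Of the dicer nucleases, the Dicer-like 3 entry Solyc07g049150 had the highest mean, but its hit did not meet the overlap mark, so its identity as a dicer rests on a partial alignment. It stood at 63.5, 82.5 and 62.2 TPM in the knockout and at 133, 87.5 and 96.8 TPM in wild type, without overlap (log2 fold change −0.59, SE 0.25, limma adjusted p = 0.284). The gene named Dicer-like 3 in the table (Solyc08g067210), which in Arabidopsis makes the small RNAs of DNA methylation, was far lower, at 8.92, 7.18 and 3.01 TPM in the knockout and 3.56, 3.35 and 6.61 TPM in wild type (log2 fold change 0.37, SE 0.44, limma adjusted p = 0.726). Dicer-like 4 (Solyc07g005030), the source of trans-acting small RNAs, stood at 19.6, 14.5 and 4.55 TPM in the knockout and at 14.7, 10.97 and 22.98 TPM in wild type (log2 fold change −0.45, SE 0.53, limma adjusted p = 0.726), and its sign changed without knockout 3. The 2 entries described as Dicer-like 1, the microRNA-producing dicer, averaged 11.8 ± 5.10 and 6.91 ± 4.39 TPM in the knockout and 13.5 ± 6.10 and 8.03 ± 3.86 TPM in wild type (SD, n = 3 each).

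Among the Dicer-like 2 genes, known for defence against viruses, 2b and 2d varied widely between libraries and 2a did not. Dicer-like 2a (Solyc06g048960) had 3.35, 2.25 and 1.89 TPM in the knockout against 3.03, 2.16 and 4.10 TPM in wild type (log2 fold change −0.22, SE 0.33, limma adjusted p = 0.785). Dicer-like 2b (Solyc11g008540) stood at 11.4, 13.8 and 2.70 TPM in the knockout and at 138, 12.9 and 39.4 TPM in wild type. Its neighbour by identifier, Dicer-like 2d (Solyc11g008530), stood at 6.22, 4.99 and 0.86 TPM in the knockout and at 24.2, 4.04 and 7.46 TPM in wild type. Both were highest in wild type 1 and lowest in knockout 3, and in both the genotypes overlapped. The log2 fold change was −2.28 for 2b (SE 0.88, limma adjusted p = 0.245; −3.09 to −1.43 with each library left out) and −1.25 for 2d (SE 0.73, limma adjusted p = 0.431; −1.76 to −0.60 with each library left out). For 2d it was −0.64 without knockout 3 and −0.60 without wild type 1. Reads may be shared between these copies. Wild type 1 is also the seed-rich wild-type library. Knockout 1, also seed-rich, was the highest knockout library for 2d, and knockout 2 was the highest for 2b. For both genes knockout 1 lay below wild type 3. The part of seed RNA in these values was not tested.

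Argonaute transcripts were dominated by the same 4 genes in both genotypes. Argonaute 4a, 1b, 4b and 1 made up 89.2%, 88.3% and 89.4% of the summed argonaute TPM in the knockout and 82.5%, 85.3% and 83.2% in wild type. Argonaute 4a (Solyc01g008960), of the group that guides DNA methylation, stood at 122, 121 and 68.5 TPM in the knockout and at 123, 77.3 and 136 TPM in wild type. Argonaute 1b (Solyc03g098280), of the group that carries microRNAs, stood at 116, 88.2 and 63.6 TPM in the knockout and at 89.4, 78.6 and 140 TPM in wild type. These 2 took the first and second rank in all 6 libraries, and their order changed between libraries: Argonaute 4a was the higher in knockout 1, 2 and 3 and in wild type 1, and Argonaute 1b in wild type 2 and 3. Their log2 fold changes were −0.12 and −0.20 (95% intervals −0.90 to 0.67 and −0.96 to 0.56; limma adjusted p = 0.901 and 0.812), and both turned positive without knockout 3 or without wild type 3. That of 4a was 0.0034 under median-ratio scaling of the libraries.

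Argonaute 1 (Solyc06g072300) and Argonaute4b (Solyc06g073540) came next in every library, with means of 49.6 ± 16.95 and 62.7 ± 29.7 TPM in the knockout and 69.1 ± 25.2 and 57.9 ± 13.3 TPM in wild type (SD, n = 3 each). Argonaute4b is described after its values were seen. Argonaute2a (Solyc02g069260), of a defence-related group, followed in every library, at 38.9, 30.2 and 18.2 TPM in the knockout and 57.7, 30.2 and 66.0 TPM in wild type. Wild type 2 lay at the level of knockout 2 (log2 fold change −0.79, SE 0.40, limma adjusted p = 0.359). Argonaute6 (Solyc07g049500) averaged 5.51 ± 2.36 TPM in the knockout and 6.68 ± 1.46 TPM in wild type, and Argonaute 10a (Solyc09g082830) 2.18 ± 0.948 and 2.11 ± 0.766 TPM (SD, n = 3 each).

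Argonaute 5 (Solyc06g074730) showed the clearest separation of the members. In Arabidopsis the gene of this name is active around the germ line. It stood at 0.48, 1.22 and 0.58 TPM in the knockout and at 4.42, 5.04 and 11.7 TPM in wild type. It met the filter for testing through its wild-type values, so a gene as low in both genotypes would not have been tested. At the filter of 5 TPM it was not tested. The genotypes did not overlap, with a log2 fold change of −2.11 (SE 0.41, 95% interval −3.07 to −1.14), yet it did not pass the threshold over all genes (limma adjusted p = 0.0904). With each library left out the log2 fold change lay between −2.34 and −1.72, with a pseudocount of 0.1 it was −3.01, and the adjusted p over all alternatives that tested it lay between 0.089 and 0.434. The seed-rich libraries, knockout 1 and wild type 1, were each the lowest of their genotype for this gene.

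Ratios within a library do not depend on how libraries are scaled, and for some pairs of members they separated the genotypes although the single genes did not. The ratio of RNA-dependent RNA polymerase2 to 6a was 2.51, 2.76 and 2.43 in the knockout and 0.905, 1.61 and 1.14 in wild type. The ratio of Dicer-like 3 (Solyc08g067210) to Dicer-like 4 was 0.455, 0.497 and 0.662 in the knockout and 0.242, 0.305 and 0.288 in wild type. In both pairs the gene on top belongs, in Arabidopsis, to the small RNA pathway of DNA methylation and the other to that of trans-acting small RNAs. Knockout 3, the lowest library for 3 of these 4 genes, and second lowest for RNA-dependent RNA polymerase2 after wild type 1, lay with the other knockout libraries in both ratios. The argonautes did not follow: the ratio of Argonaute 4a to Argonaute 1 was 1.79, 2.70 and 1.93 in the knockout and 1.88, 1.68 and 1.42 in wild type, that of Argonaute4b to Argonaute 1 was 1.33, 1.45 and 0.899 in the knockout and 0.987, 0.924 and 0.694 in wild type, and both overlapped. The ratios of 4a and 4b to Argonaute 1b overlapped as well. So did the ratio of the other Dicer-like 3 entry, Solyc07g049150, to Dicer-like 4. The ratio of the polymerase entry Solyc12g008420, which has no further name, to 6a separated the genotypes too. The part of either pathway in these ratios was not tested. All these pairs were chosen with the values known and are given without a test. Among all 528 pairs of the members read in every library, 36.4% had ratios that did not overlap between the genotypes, and among all pairs of tested genes read in every library 25.3% did, so single pairs without overlap are common in these data. A ratio shows unequal levels and does not say which of the genes moved.

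**Figure D4:**
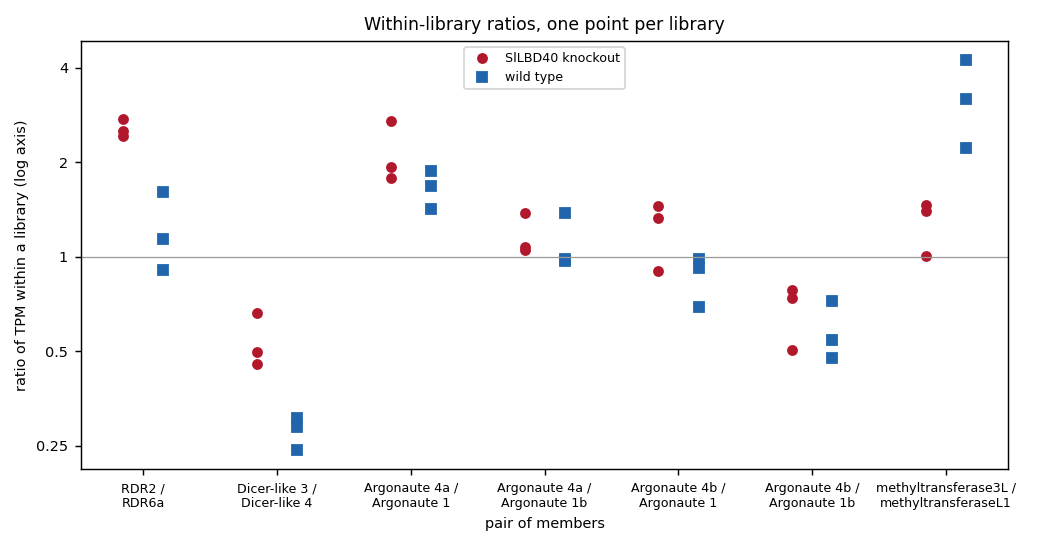
Ratio of TPM of pairs of members within each library, on a log axis, with 1 point per library, knockout circles left of wild-type squares. The ratios of RNA-dependent RNA polymerase2 to 6a and of Dicer-like 3 to 4 do not overlap between genotypes, and the 4 argonaute ratios do. That of methyltransferase3L to L1 could not overlap, because both of its genes separate the genotypes in opposite directions.

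Partner genes of these pathways, listed by patterns in their descriptions, were read from the same comparison, and limma called 0 in each list. For RNA polymerase IV and V and their partners 7 of 38 genes were tested, with 0 at an unadjusted p under 0.05 and a median log2 fold change of −0.32. The polymerase V subunit 5A entry Solyc04g040170 stood at 10.7, 10.9 and 13.1 TPM in the knockout and at 16.5, 16.01 and 19.95 TPM in wild type, without overlap (limma adjusted p = 0.304), and the second such entry Solyc01g098320 at 7.64 ± 2.16 TPM in the knockout and 12.4 ± 5.47 TPM in wild type (SD, n = 3 each). For microRNA processing and silencing partners 8 of 12 genes were tested, again with 0 at that level and a median of −0.28. Those with the lowest p were a double-stranded RNA-binding protein (Solyc11g069460), at 4.19, 6.30 and 1.17 TPM in the knockout and 7.28, 5.14 and 8.18 TPM in wild type, and a small RNA 2'-O-methyltransferase-like gene (Solyc02g070030), whose type methylates the ends of small RNAs, at 7.37 ± 1.88 TPM in the knockout and 11.3 ± 4.22 TPM in wild type (SD, n = 3 each). By summed level both lists were lowest in knockout 3, like the members and like the methylation maintenance list described next.

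Genes that maintain methylation and methylate histone H3 at lysine 9 had a median of −0.61 over 7 tested genes of 23, all 7 with a lower mean in the knockout, 2 at an unadjusted p under 0.05 and 4 without overlap. Over all genes tested these shares were 56.5%, 11.3% and 16.1%, all in the lower direction. The chromatin remodeller DDM1 (Solyc02g085390), which opens chromatin to maintenance methyltransferases, stood at 0.67, 1.62 and 0.77 TPM in the knockout and at 4.90, 2.64 and 3.30 TPM in wild type (log2 fold change −1.19, SE 0.34, limma adjusted p = 0.150; −1.78 with a pseudocount of 0.1). A second DDM1 entry (Solyc02g062780) averaged 1.25 TPM in the knockout and 3.86 TPM in wild type, with overlap (limma adjusted p = 0.293). ORTHRUS 2 (Solyc05g023680), of a family of proteins that bind methylated DNA, stood at 0.36, 0.54 and 0.32 TPM in the knockout and at 4.59, 1.15 and 1.61 TPM in wild type (log2 fold change −1.17, SE 0.41, limma adjusted p = 0.210; −2.11 with a pseudocount of 0.1). A second ORTHRUS 2 entry (Solyc03g118180) averaged 6.18 TPM in the knockout and 8.72 TPM in wild type, without overlap (limma adjusted p = 0.438). Solyc02g085390 and Solyc05g023680 met the filter for testing through their wild-type values. Entries as low in both genotypes would not have been tested. The summed level of DNA replication genes, given above, was also lower in all 3 knockout libraries, and its part in these values was not tested.

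The methyl donor cycle, which makes S-adenosylmethionine and clears its product, had the lowest median of the pathway lists, −1.39 over 6 tested genes of 8, all with a lower mean, 3 at an unadjusted p under 0.05 and 4 without overlap, against the same 56.5%, 11.3% and 16.1% of all genes. Adenosylhomocysteinase (Solyc09g092390), which removes the inhibitory product of methylation, stood at 38.2, 58.0 and 31.9 TPM in the knockout and at 271, 80.9 and 455 TPM in wild type (log2 fold change −2.35, SE 0.61, limma adjusted p = 0.132; −3.06 without wild type 2). Methionine synthase (Solyc10g081510) stood at 118, 148 and 81.7 TPM in the knockout and at 832, 190 and 719 TPM in wild type (log2 fold change −2.10, SE 0.57, limma adjusted p = 0.141; −2.77 without wild type 2). For both genes wild type 2 lay nearer to the knockout libraries than to wild type 1 and 3. The summed level of the list was 312, 397 and 343 TPM in the knockout and 1770, 486 and 1950 TPM in wild type. S-adenosylmethionine also feeds ethylene synthesis and other methylations.

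**Figure D5:**
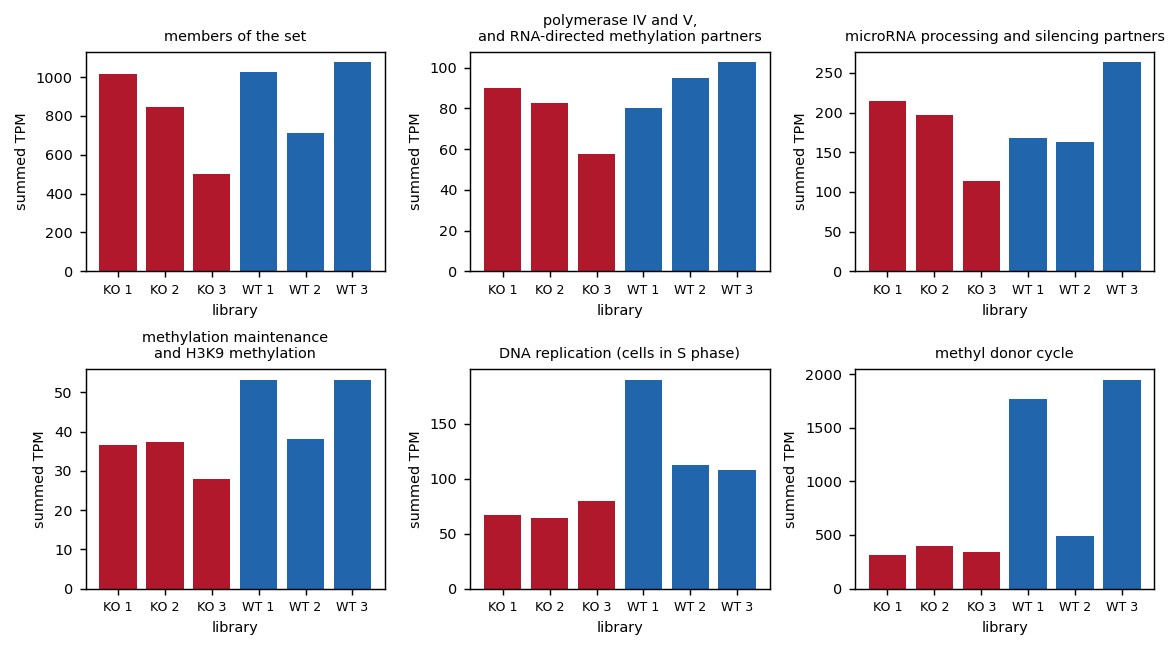
Summed TPM of the members and of 5 lists of related genes in each library, knockout (KO) bars left of wild-type (WT) bars. The members, both small RNA partner lists and the methylation maintenance list are lowest in knockout 3. The replication genes are lower in all 3 knockout libraries and the methyl donor cycle is high in wild type 1 and 3.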

How the data were processed

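The deposited table holds 6 value columns, named by genotype and number, with no unit in its header. Each sums to between 987932 and 994646, so the authors' values were treated as TPM. Per the submitters' processing notes, TopHat2, HISAT2, StringTie and Cufflinks were used, with no role or version recorded. The genome build is not given in the sources used here. Because TPM keeps no depth, sequencing depth is unknown and intervals for counting error could not be had. Columns are numbered 1 to 3 within a genotype, and only that of knockout 2 has a name that is also a sample title. Since the other numbers do not follow the titles, each column was assigned to a genotype only.

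The 18368 genes that reached 1 TPM in 3 or more libraries were tested with limma 3.58.1 (R 4.3.3), using its trend option, on the log2 of TPM plus a pseudocount of 1. Fold changes on this scale understate those of low genes. The scripts were tested on simulated data.

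Named members were, per role, the 5 with the lowest p and the one with the highest mean, and from each pathway list the 2 with the lowest p. Other members described, and PCNA, were picked after their values were seen. Lists were patterns in the descriptions. Matches to ASHH1, caught by letters alone, were removed. Members and lists were chosen with earlier results of these data known. The RefSeq gene table held 0 lines with an identifier of the deposited table, so names are the table's own. Alternatives were median-ratio scaling, no low-value filter, a minimum of 5 TPM, limma's robust option, a pseudocount of 0.1, each library left out, and both seed-rich libraries left out. Plots were made in Python 3.11.15 with matplotlib 3.10.9.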

Additional observations from a re-analysis of the deposited data

How the results depend on the processing

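Limma called 0 members under all 12 alternatives, but it called 0 genes of any kind in 4 of them (no filter, and knockout 1, wild type 3 or both seed-rich libraries left out), and 3 to 27 genes in the others. Under median-ratio scaling the median log2 fold change was −0.14 for the members and 0.016 for all genes, which had −0.087 in the analysis as reported. That scaling gave 1 higher member at an unadjusted p under 0.05 and 2 non-overlapping higher members, and it put Argonaute 4a at 0.0034. Of all genes, 9.29% were then higher at that p and 25.4% did not overlap in either direction. With no filter 51 members were tested and 2 were non-overlapping and higher, where 19.1% of all genes did not overlap in either direction. With the filter of 5 TPM 29 were tested and 2 were lower at an unadjusted p under 0.05, against 11.9% of all genes. Leaving out each library in turn gave medians of −0.42 to 0.088 for the members and −0.17 to 0.026 for all genes. It gave 0 to 2 higher and 1 to 8 lower members at an unadjusted p under 0.05. Without overlap there were 1 to 7 higher and 4 to 13 lower members. In those fits 29.4% to 40.3% of all genes did not overlap in either direction, against 24.4% with all libraries. At an unadjusted p under 0.05, 3.75% to 9.51% of all genes were higher and 7.47% to 11.7% lower, against 6.24% and 11.3%. Without both seed-rich libraries 1 member was lower at an unadjusted p under 0.05, against 5.92% of all genes. Then 9 members were lower without overlap, where 39.9% of all genes did not overlap in either direction. Log2 fold changes in that fit changed sign to −0.38 for Solyc04g005250, −0.25 for DNA demethylase 4, −0.063 for RNA-directed DNA methylation 4 and −0.0066 for Dicer-like 3 (Solyc08g067210). The causes were not tested.

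Of 33 named genes, 24 kept their sign under every alternative that tested them. With each library left out, signs changed within −0.36 to 0.16 for Argonaute 4a, −0.41 to 0.048 for Argonaute 1b, −0.48 to 0.053 for Argonaute6, −0.83 to 0.11 for Dicer-like 4, −0.42 to 0.10 for Solyc06g051190, −0.11 to 0.33 for DNA demethylase 4 and −0.020 to 0.70 for Solyc04g005250. No paired analysis was possible because the titles of the genotypes share fewer than 2 numbers and, apart from knockout 2, the column names are not those of the titles.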
